A study of Mus musculus with 11 samples.

Results

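Ret, 3 GFR-alpha co-receptor genes (Gfra1, Gfra2 and Gfra3) and 4 transcription factor genes of the sympathoadrenal lineage (Phox2a, Hand2, Gata2 and Gata3) were followed in mouse adrenal glands with and without the testes. These 8 genes were taken by name from a count table of 23337 gene symbols, and all 8 were found and passed the filter on low counts. The samples were whole adrenal glands of male Hsd:Athymic Nude-Foxn1nu mice, a strain without a functional thymus, and both groups had received VCaP cells, a human prostate cancer line, at study week 0 when the mice were about 5 to 6 weeks old. At week 7 the mice were divided into an intact group and an orchectomized group, called ORX, from which the testes are removed. Glands were collected at week 15, from 5 intact and 6 ORX samples. The labels do not say that each sample came from its own mouse, so the spread below may be partly technical.

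RET is a receptor tyrosine kinase that is switched on by the GDNF family of neurotrophic ligands. A ligand first binds a GFR-alpha protein held on the membrane by a lipid anchor, and the pair then brings RET molecules together; GFR-alpha-1 prefers GDNF, GFR-alpha-2 neurturin and GFR-alpha-3 artemin. Chromaffin cells of the adrenal medulla and sympathetic neurons share an origin in the neural crest, and PHOX2A, HAND2, GATA2 and GATA3 belong to the transcription factor network that gives this lineage its noradrenergic identity, including expression of the catecholamine enzymes. GATA2 and GATA3 also act in blood and endothelial lineages, and HAND2 in mesenchyme.

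Sequence from the start of 3 of the transcription factor genes is shown because their levels are set against each other from library to library below, where no pair passed the adjustment for the number of pairs. Each line holds the 250 bases before and 50 bases after an annotated RefSeq transcription start (GRCm38.p6), read 5′ to 3′ on the gene's strand, with capitals marking matches on either strand to any of 3 motifs, the GATA site AGATAA, the E-box CATCTG and the GC box GGGCGG. The windows are chr7:101818063-101818362 (plus strand) for Phox2a, chr8:57320733-57321032 (plus strand) for Hand2 and chr6:88193641-88193940 (plus strand) for the upstream start of Gata2.
Phox2a: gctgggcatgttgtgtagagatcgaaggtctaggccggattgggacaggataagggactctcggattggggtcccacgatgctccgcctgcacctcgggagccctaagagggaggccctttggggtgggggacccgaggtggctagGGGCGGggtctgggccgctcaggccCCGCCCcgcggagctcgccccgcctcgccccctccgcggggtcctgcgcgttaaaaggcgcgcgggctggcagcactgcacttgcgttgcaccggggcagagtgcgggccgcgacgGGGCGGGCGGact
Hand2: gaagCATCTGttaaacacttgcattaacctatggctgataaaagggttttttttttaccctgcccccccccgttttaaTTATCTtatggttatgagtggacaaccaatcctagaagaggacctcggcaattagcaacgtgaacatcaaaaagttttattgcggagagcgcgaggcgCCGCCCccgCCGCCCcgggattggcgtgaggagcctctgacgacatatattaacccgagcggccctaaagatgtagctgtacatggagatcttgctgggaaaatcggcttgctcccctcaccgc
Gata2: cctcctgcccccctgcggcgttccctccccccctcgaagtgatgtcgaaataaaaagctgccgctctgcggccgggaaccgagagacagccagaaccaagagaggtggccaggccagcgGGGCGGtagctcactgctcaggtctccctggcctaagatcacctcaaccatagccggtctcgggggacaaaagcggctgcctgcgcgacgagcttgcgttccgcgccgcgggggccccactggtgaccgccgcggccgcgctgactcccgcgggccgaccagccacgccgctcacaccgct
The Hand2 window held 1 AGATAA match, 1 CATCTG match and 2 GC boxes, the Phox2a window 4 GC boxes, of which the last 2 overlap each other, and the Gata2 window 1 GC box. Of 32851 RefSeq promoter windows of this length, 11.2% held AGATAA, 17.2% CATCTG and 35.7% GGGCGG. Matches are letters in a window and were not tested for binding.

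Total gene counts were 11368447 to 15029582 per library. Values below are CPM, counts scaled to the library size after TMM adjustment, with SD over n = 5 intact and n = 6 ORX samples. A gene is said to have risen or fallen in ORX where edgeR's quasi-likelihood test gave a Benjamini-Hochberg adjusted p under 0.05 over all 14139 tested genes. By this rule 6.21% of tested genes changed, 3.03% higher and 3.18% lower in ORX, with a median log2 fold change of 0.01. Of the 8 members, 2 fell, Ret and Gfra3, and 6 did not pass. ORX 6 stood apart from the other libraries in carrying more reads of short transcripts. The median deviation of its transcripts of at least 6865 bases minus that of transcripts of up to 1454 bases was -1.37 in log2 CPM, against -0.39 to 0.35 in the other ORX libraries and -0.10 to 0.43 in the intact libraries.

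Ret, the signalling receptor (chromosome 6, 118151745 to 118197718, minus strand, GRCm38), had 9.62, 15.5, 7.35, 5.19 and 13.0 CPM in intact 1 to 5. In ORX 1 to 6 it had 2.44, 1.88, 5.75, 3.04, 2.32 and 2.41 CPM. The groups overlapped only through ORX 3, the highest ORX library, which lay above intact 4, the lowest intact library; the other 5 ORX libraries lay below every intact library. Ret fell from 10.1 ± 4.18 to 2.98 ± 1.41 CPM (SD, n = 5 and 6), 3.40-fold lower, or log2 -1.77 ± 0.34 (SE; 95% interval -2.50 to -1.03; edgeR adjusted p = 0.00917). In whole glands, fewer cells of a type and less RNA per cell cannot be told apart. The values rest on 62 to 183 reads in an intact and 29 to 78 reads in an ORX library. The fall kept its call when any 1 library was left out, with log2 fold changes of -2.06 to -1.56. The call was lost when the libraries were scaled to chromaffin cell markers (log2 -1.20, edgeR adjusted p = 0.0543). It was also lost with the score of those markers as a covariate (log2 -0.81, edgeR adjusted p = 0.444) or with the sample number as a block (log2 -1.71, edgeR adjusted p = 0.0777). Ret stayed lower in ORX in each of these fits. The log2 fold change was -1.65 after each library's trend with transcript length was removed, a correction chosen after seeing the data (edgeR adjusted p = 0.0105).

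Gfra3, the artemin co-receptor (chromosome 18, 34689898 to 34720387), was the weaker of the 2 calls. The intact libraries had 3.13, 2.46, 3.71, 4.02 and 4.24 CPM, and the ORX libraries 2.37, 1.43, 1.99, 1.98, 1.84 and 2.04 CPM. Every ORX library lay below every intact library, as was seen for 2.36% of all tested genes, although intact 2 and ORX 1 were close. Gfra3 fell from 3.51 ± 0.72 to 1.94 ± 0.31 CPM (SD, n = 5 and 6), 1.81-fold (log2 -0.86 ± 0.23 SE; edgeR adjusted p = 0.043). These values are 29 to 56 reads in an intact and 22 to 33 reads in an ORX library. The call held without intact 2 or without ORX 3 and ended without any other single library (intact 1, 3, 4 or 5, or ORX 1, 2, 4, 5 or 6; edgeR adjusted p up to 0.115, without intact 5), while the log2 fold change stayed between -0.96 and -0.78.

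Gfra1, the GDNF co-receptor (chromosome 19, 58235604 to 58455909), had 2.26, 2.29, 2.85, 3.68 and 4.32 CPM in the intact libraries. In the ORX libraries it had 0.65, 1.04, 2.80, 2.13, 1.44 and 0.75 CPM. ORX 3 again stood highest of its group and was the only ORX library within the intact range. The mean was 3.08 ± 0.90 CPM in intact and 1.47 ± 0.85 CPM in ORX (SD, n = 5 and 6), and the log2 fold change, -1.07 ± 0.38, did not pass (SE; 95% interval -1.88 to -0.25; edgeR adjusted p = 0.113). Without ORX 3 it passed, at log2 -1.36 (edgeR adjusted p = 0.0362). ORX 1 held 9 reads of this gene and intact 5 held 57.

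Gfra2, the neurturin co-receptor (chromosome 14, 70890120 to 70979838), spread widely within both groups. It had 19.8, 14.6, 8.94, 7.95 and 22.8 CPM in the intact libraries. The ORX libraries had 8.98, 8.05, 17.0, 13.6, 12.6 and 8.14 CPM, all of them inside the intact range. The means were 14.8 ± 6.53 and 11.4 ± 3.63 CPM (SD, n = 5 and 6), log2 -0.38 ± 0.30 (SE; 95% interval -1.03 to 0.27; edgeR adjusted p = 0.488). Whether the fold changes of the 3 co-receptors or of Ret differ from each other was not tested.

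**Figure D1:**
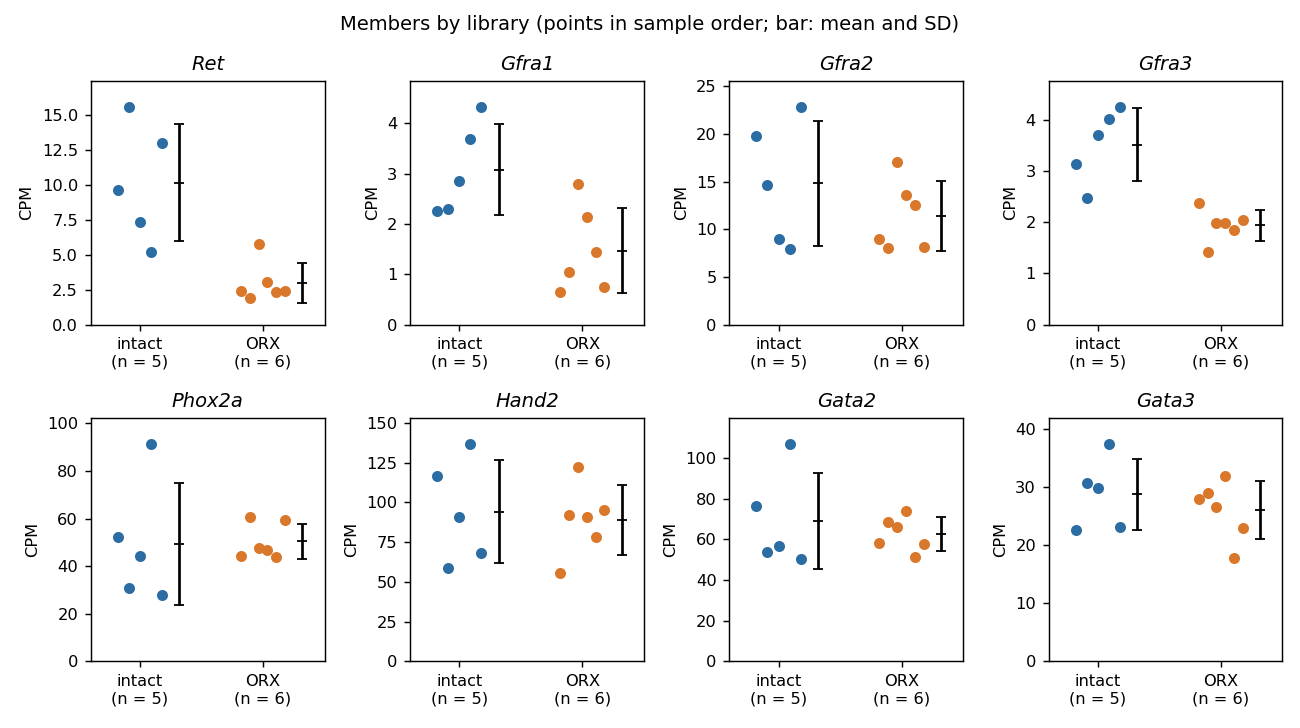
CPM of the 8 genes (vertical axis, starting at 0) in each library, with the 5 intact libraries in blue, the 6 ORX libraries in orange, and a black bar for the mean ± SD of each group. Ret separates the groups except for ORX 3 at 5.75 CPM, Gfra3 separates them fully, and the 4 transcription factor genes in the lower row overlap.

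The 4 transcription factor genes did not pass the test, and for each the ORX mean lay within 1 SD of the intact mean. Phox2a, a homeodomain factor that acts on the dopamine beta-hydroxylase gene (chromosome 7, 101818313 to 101822726), had 52.1, 30.8, 44.3, 91.4 and 27.8 CPM in the intact libraries. Its ORX libraries had 44.2, 60.5, 47.5, 46.8, 44.0 and 59.3 CPM. Intact 4 was the highest and intact 5 the lowest of all 11, and every ORX library fell between them. The log2 fold change of Phox2a was 0.03 ± 0.26 (SE; 95% interval -0.53 to 0.60; edgeR adjusted p = 0.959).

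Hand2, a basic helix-loop-helix factor (chromosome 8, 57320983 to 57324633), ranged from 59.0 CPM in intact 2 to 137 CPM in intact 4, and from 55.5 CPM in ORX 1 to 122 CPM in ORX 3. The groups overlapped over nearly their whole range. Its log2 fold change was -0.08 ± 0.23 (SE; 95% interval -0.59 to 0.42; edgeR adjusted p = 0.871). Gata2, a zinc finger factor (chromosome 6, 88193891 to 88207032), ranged from 50.5 to 107 CPM in intact and from 51.2 to 73.9 CPM in ORX, log2 -0.14 ± 0.19 (SE; 95% interval -0.55 to 0.28; edgeR adjusted p = 0.716). Its highest library was again intact 4. Gata3, the related zinc finger factor (chromosome 2, 9857078 to 9890034), ranged from 22.6 to 37.4 CPM in intact and from 17.7 to 31.9 CPM in ORX, log2 -0.14 ± 0.18 (SE; 95% interval -0.53 to 0.25; edgeR adjusted p = 0.689). Intact 4 was once more the highest library, and ORX 5 the lowest. The intervals of Hand2, Gata2 and Gata3 leave out a change of 2-fold in either direction, and so does that of Phox2a, but smaller changes would lie within them.

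**Figure D2:**
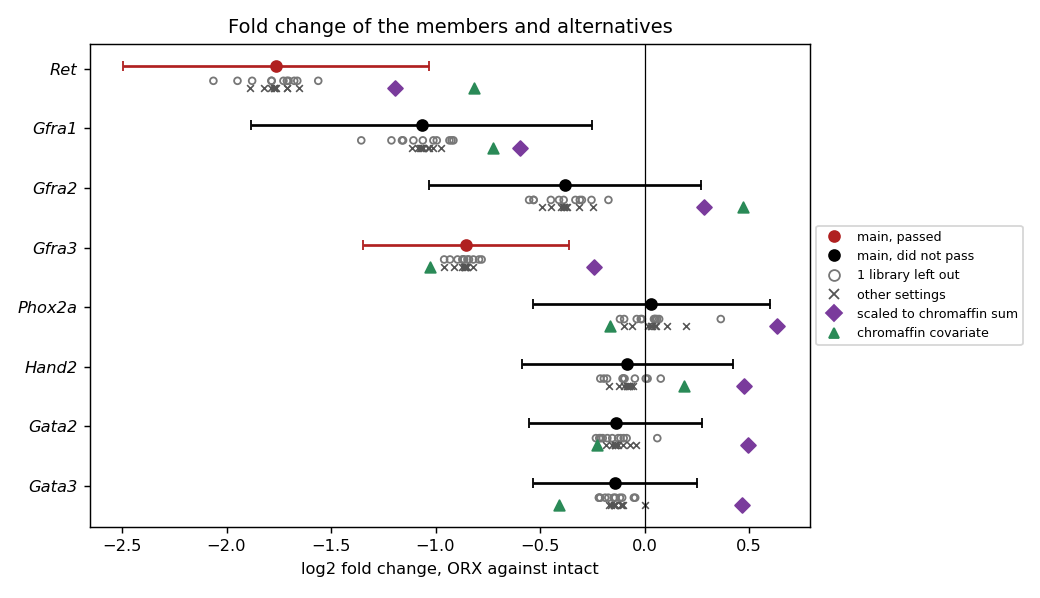
Filled circles give the log2 ratio of ORX to intact (horizontal axis) for each of the 8 genes with its 95% interval, red where it passed and black where it did not, and the smaller marks below it are the same value under other settings. Ret stays below 0 throughout, from -2.06 to -0.81, and scaling to the chromaffin marker sum moves all 8 genes to the right.

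Per kilobase of the longest annotated transcript, the transcription factor genes stood above the receptor genes in both groups. In intact the order was Hand2 (40.1 ± 13.9 CPM per kb, SD, n = 5), Phox2a (30.6 ± 15.9), Gata2 (19.3 ± 6.58), Gata3 (8.93 ± 1.91), Gfra2 (4.27 ± 1.88), Ret (1.86 ± 0.77), Gfra3 (1.76 ± 0.36) and Gfra1 (0.66 ± 0.19). Within the libraries this order held in all 5 for each neighbouring pair but Ret and Gfra3, where it held in 3. In ORX, Gfra3 (0.97 ± 0.15 CPM per kb, n = 6) stood above Ret (0.55 ± 0.26) in 5 of 6 libraries, and Gfra1 (0.32 ± 0.18) was again the lowest. The ranges of Hand2 and Phox2a overlapped in both groups, and so did those of Ret and Gfra3. Overlaps of neighbours were also seen for Phox2a with Gata2 and Gfra2 with Ret in intact, and for Ret with Gfra1 in ORX. By this measure Ret went from a level beside Gfra3 in intact to one between Gfra3 and Gfra1 in ORX. Divided by the merged length of all annotated exons instead, the mean of Ret lay between those of Gfra3 and Gfra1 in both groups. The change in the place of Ret thus depends on the length used.

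**Figure D3:**
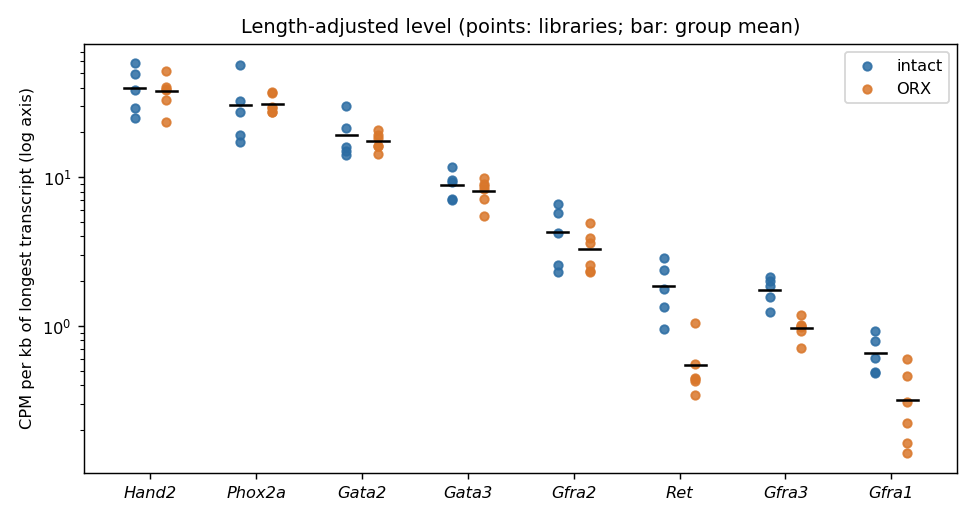
Each point is 1 library, as CPM per kilobase of the longest transcript on a log axis, for the 8 genes ordered by their intact mean (bars are group means). Hand2 and Phox2a lead with about the same level in intact (blue) and ORX (orange), and Ret shows the widest gap between its group means, 1.86 against 0.55.

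The libraries in which Ret was high were not those in which Phox2a was high. Relative to Phox2a, Ret had 185, 506, 166, 56.8 and 466 reads per 1000 Phox2a reads in intact 1 to 5. In the ORX libraries it had 55.2, 31.1, 121, 65.0, 52.8 and 40.7, so that intact 4 fell among the ORX values. Over the 11 libraries, with each gene's log2 CPM centred on its group mean, Ret and Phox2a had r = -0.70 (permutation p = 0.0243) and rho = -0.65 (permutation p = 0.0571). Ret and Gfra2 had r = 0.79 (permutation p = 0.00902) and rho = 0.83 (permutation p = 0.00743), while Phox2a and Gata2 had r = 0.86 (permutation p = 0.00816) and rho = 0.73 (permutation p = 0.0352). Phox2a and Hand2 had r = 0.76 (permutation p = 0.0132) and rho = 0.79 (permutation p = 0.0131), and Hand2 and Gata2 had r = 0.75 (permutation p = 0.018) and rho = 0.70 (permutation p = 0.0368). None of the 36 pairs among the 8 genes and the chromaffin marker sum passed the adjustment (smallest adjusted p 0.158 for r and 0.236 for rho; labels were permuted within groups). Leaving out the 2 libraries farthest from the median of the first gene gave r = -0.84 for Ret and Phox2a, 0.88 for Ret and Gfra2, 0.57 for Phox2a and Gata2, 0.68 for Phox2a and Hand2 and 0.83 for Hand2 and Gata2.

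**Figure D4:**
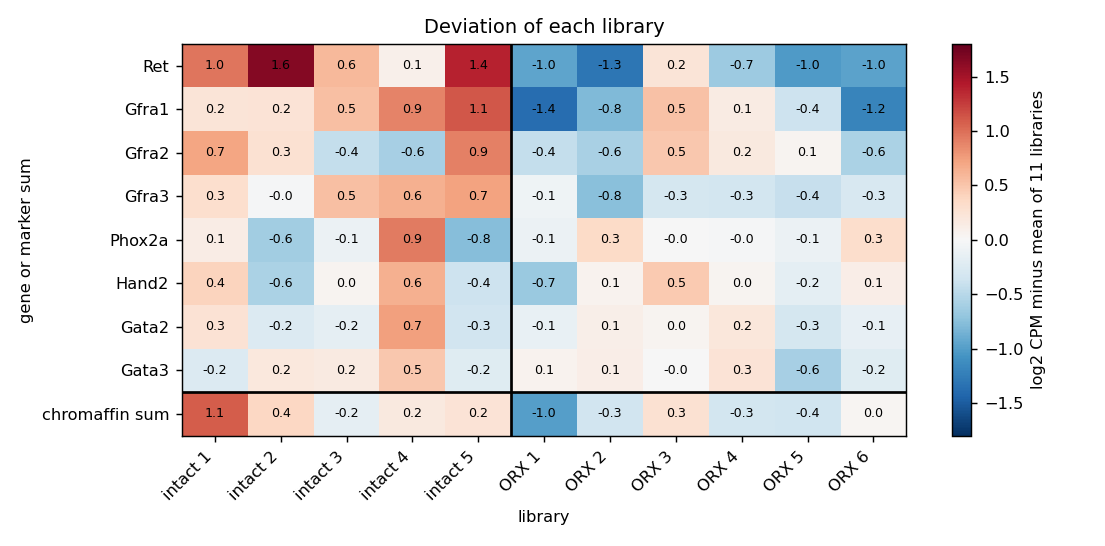
Each cell gives the log2 CPM of 1 gene (row) in 1 library (column) minus its mean over the 11 libraries, and the bottom row does the same for the summed chromaffin markers. Ret runs from 1.65 in intact 2 to -1.30 in ORX 2, and intact 4 holds the highest value of all 4 transcription factor genes.

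By the same centred measure, the genes most like each member among 13725 others were chosen for their likeness, so r and rho describe them and carry no p. For Ret they were Clic4, a chloride intracellular channel gene (r = 0.95, rho = 0.88), Myrip, a linker of secretory granules to myosin (r = 0.95, rho = 0.96), and Tbc1d16 (r = 0.95, rho = 0.94). For Gfra1 they were Gpm6a, Lmod1 and Thbs4 (r 0.90 to 0.92), for Gfra2 Gpr55, Trim9 and Ywhag (r 0.93 to 0.94) and for Gfra3 Rab37, Stradb and Gpd2 (r 0.92 to 0.93). Phox2a was most like Rcor2, Scnn1a and Mettl8 (r 0.92 to 0.93), and Hand2 most like Ccdc92, Celf3 and Rltpr (r 0.96 to 0.97). Gata2 was most like Evpl, Eme2 and Arhgef15 (r 0.94 to 0.95), and Gata3 most like A930013F10Rik, Dtna and Palb2 (r 0.89 to 0.90). No member stood among the 3 genes most like another member. With 3 picked from 13725 genes, this does not show that the members vary apart.

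The markers of chromaffin cells, the medullary cells in which these factors act, were lower in ORX as a sum. The summed level of 15 listed markers ranged from 13833 to 33116 CPM in intact and from 7769 to 18817 CPM in ORX, with no marker at 0 in any library. Being a sum of CPM, it weighed the most abundant markers most. Its mean was 20551 CPM in intact and 13190 CPM in ORX. Of this, Chgb, chromogranin B, held 8512 and 4824 CPM, and Chga 4454 and 4102 CPM. Chgb by itself did not pass (log2 -0.82, edgeR adjusted p = 0.129). The log2 difference of the sums was -0.63 (exact permutation test over samples, two-sided, p = 0.0346; the smallest p the 5 and 6 samples allow is 0.00216). It did not pass without intact 1, 2 or 5 or without ORX 1, 2, 4 or 5 (exact permutation p up to 0.0857, without intact 1, where the log2 difference was -0.44). Of the 15 markers 2 fell and 13 did not pass, with a median log2 fold change of -0.50. Slc18a2, which loads catecholamines into vesicles, fell from 70.3 ± 28.0 to 25.8 ± 4.78 CPM, a log2 fold change of -1.44 (edgeR adjusted p = 0.00411), and neuropeptide Y, Npy, fell by 1.94 on the log2 scale (edgeR adjusted p = 0.0295; lost without any of 7 of the 11 libraries, up to 0.0813). Th, tyrosine hydroxylase, was at log2 -1.25 (edgeR adjusted p = 0.0565) and Chga, chromogranin A, at -0.12 (edgeR adjusted p = 0.819).

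When the libraries were scaled to the summed chromaffin markers in place of TMM, the median log2 fold change over all tested genes moved to 0.64, and 1217 genes were called higher and 68 lower, against 428 and 450 with TMM. On this scale Ret was at log2 -1.20 (edgeR adjusted p = 0.0543), Gfra1 at -0.60, Gfra3 at -0.24 (edgeR adjusted p = 0.652) and Gfra2 at 0.28. Phox2a was at 0.63, Gata2 at 0.50, Hand2 at 0.48 and Gata3 at 0.46 (edgeR adjusted p 0.164 to 0.294), so that Hand2, Gata2 and Gata3 changed sign and lay near the shift of all genes. With the mean log2 CPM of the same markers as a covariate, Ret was at -0.81 (edgeR adjusted p = 0.444) and Gfra3 at -1.03 (edgeR adjusted p = 0.264). None of the members passed in either fit, where 9.09% of all tested genes passed with the scaling and 0.615% with the covariate. In ORX 3 both Ret and the chromaffin sum (18817 CPM) were the highest of the group, as were the sums of stroma (1256 CPM), fat (7235 CPM), mast cell (50.6 CPM) and endothelial markers (1105 CPM), while that of cortex markers was the lowest (61247 CPM). In intact 4, with 17488 CPM of chromaffin markers, Ret was the lowest of its group and the 4 factors the highest.

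Of the other genes of the pathway, 62 of 73 listed genes were tested. Of these, 1 rose, 2 fell and 59 did not pass, with a median log2 fold change of -0.24. Over all tested genes, 3.03% rose and 3.18% fell. Scaled to the summed chromaffin markers, 3 of the 62 were called higher (Akt1, Grb2 and Sdc3) and 0 lower. On that scale 9.09% of all tested genes passed in either direction. Among the 9 ligands and other co-receptors, none passed over 6 tested genes (edgeR; 1 at an unadjusted p under 0.05, 0 with DESeq2 and 0 with limma voom). Gdnf, the ligand of GFR-alpha-1, had 167 reads over the intact and 160 over the ORX libraries (log2 -0.36 ± 0.54 SE; edgeR adjusted p = 0.735). Nrtn, neurturin, had 2.57 ± 1.46 and 3.59 ± 1.62 CPM (log2 0.48; edgeR adjusted p = 0.522), and Gfra4, the persephin co-receptor, from 0.36 to 1.39 and from 0.44 to 2.19 CPM (log2 -0.14; edgeR adjusted p = 0.894). Artn, artemin, had 17 reads over the intact and 18 over the ORX libraries, and Pspn, persephin, 8 and 17 reads, too few for a test. Gfral, the receptor of GDF15, had 0 reads, and Gdf15 itself was at log2 -0.05 (edgeR adjusted p = 0.97). Ncam1, an alternative GDNF receptor, was at -0.39 (edgeR adjusted p = 0.173) and the heparan sulphate proteoglycan Sdc3 at 0.31 (edgeR adjusted p = 0.435).

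Downstream of the receptor, 23 of 24 listed adaptors and effectors were tested, of which Akt1 rose, Ptpn11 fell and 21 did not pass (median log2 -0.16). Ptpn11, the SHP2 phosphatase, fell from 272 ± 44.0 to 178 ± 27.9 CPM (SD, n = 5 and 6), at log2 -0.61 (edgeR adjusted p = 0.0299), and the kinase gene Akt1 rose from 331 ± 39.0 to 471 ± 49.6 CPM, at log2 0.51 (edgeR adjusted p = 0.0431). The call of Ptpn11 ended without any of 6 of the 11 libraries and that of Akt1 without any of 8 (edgeR adjusted p up to 0.0893 and 0.112). Scaled to the chromaffin marker sum, Ptpn11 lay at log2 0.05 (edgeR adjusted p = 0.904) and Akt1 at 1.17 (edgeR adjusted p = 0.022). On that scale the median over all tested genes was 0.64. Of 9 genes that RET signalling is known to induce in other tissues, 1 fell and 8 did not pass (median log2 -0.44). By the sign of the fold change, 6 of the 9 were lower and 3 higher in ORX. The gene that fell was Spry1, a feedback inhibitor of receptor tyrosine kinases. It went from 43.0 ± 7.78 to 26.2 ± 2.80 CPM, at log2 -0.72 (edgeR adjusted p = 0.0111). Every ORX library lay below every intact library, as was seen for 2.36% of all tested genes. Spry1 kept its call when any 1 library was left out. Scaled to the chromaffin marker sum it lay at -0.08 (edgeR adjusted p = 0.865), below the same median of 0.64. These genes serve many receptors.

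None of 13 tested genes among 17 other sympathoadrenal transcription factors passed (edgeR; 2 at an unadjusted p under 0.05, 2 with DESeq2 and 2 with limma voom), with a median log2 fold change of -0.30. Hand1, the relative of Hand2, was at log2 0.18 (edgeR adjusted p = 0.797). Of 14 neurotrophin and related genes none of 11 tested passed (edgeR; 3 at an unadjusted p under 0.05, 1 with DESeq2 and 0 with limma voom; median log2 -0.39).

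**Figure D5:**
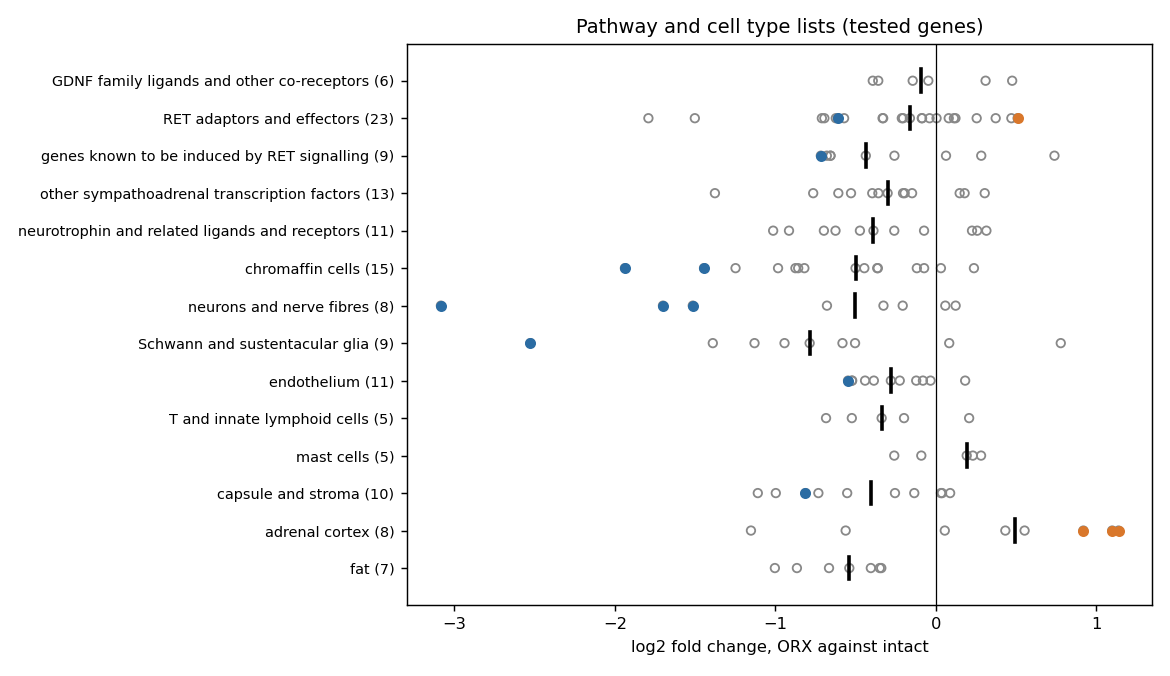
Tested genes of the pathway and cell type lists, placed by their log2 ratio of ORX to intact on the horizontal axis, are drawn as circles, filled orange where it rose, blue where it fell and open where it did not pass, a black bar marking each list's median and the number of tested genes in brackets. The neuronal gene Nefm (-3.08) and the glial gene Gfap (-2.53) lie farthest to the left, ahead of the chromaffin gene Npy (-1.94), and the median of the other sympathoadrenal factors is -0.30.

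Some markers of other cells in which the members are known to be made also differed between the groups. Their part in the values of Ret, Gfra3 and the factors was not tested. Of 8 tested neuronal genes, 3 fell and 5 did not pass, and by the sign of the fold change 6 were lower and 2 higher in ORX. Tubb3, neuronal beta-tubulin, fell from 26.3 ± 7.88 to 8.10 ± 1.99 CPM (SD, n = 5 and 6), at log2 -1.70 (edgeR adjusted p = 0.000915). The neurofilament genes Nefl (log2 -1.51, edgeR adjusted p = 0.0169) and Nefm (log2 -3.08, edgeR adjusted p = 0.00831) fell as well. Nefm spread widely in intact, from 2.45 to 39.8 CPM, and overlapped ORX, at 1.15 to 2.58 CPM. The neuronal sum ranged from 168 to 246 CPM in intact and from 107 to 251 CPM in ORX, with 3 of 11 genes at 0 in at least 1 library. Its mean was 210 CPM in intact and 149 CPM in ORX. Of this, Uchl1, which did not pass, held 120 and 96.0 CPM, so the sum says little about the 3 genes that fell. Chat, which makes acetylcholine, had 2 reads over each group. Of 9 glial genes 8 did not pass and 1, Gfap, fell (log2 -2.53, edgeR adjusted p = 0.0124). Gfap also overlapped between the groups, at 4.27 to 39.1 CPM in intact and 1.44 to 5.05 CPM in ORX. The glial sum was 64.2 to 101 CPM in intact and 64.7 to 82.2 CPM in ORX.

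Of 11 endothelial genes, Eng fell (log2 -0.55; edgeR adjusted p = 0.0299, up to 0.0856 without any of 6 of the 11 libraries) and 10 did not pass, with sums of 972 to 1384 CPM in intact and 914 to 1105 CPM in ORX. In the capsule and stroma, 9 genes did not pass and Pdgfrb fell (log2 -0.81; edgeR adjusted p = 0.0186, up to 0.0582 without either of 2 of the libraries), with sums of 789 to 1331 and 540 to 1256 CPM. Lymphoid markers summed to 45.5 to 85.6 CPM in intact and 54.7 to 68.4 CPM in ORX, and mast cell markers to 13.7 to 59.0 and 11.5 to 50.6 CPM. None of the 5 tested genes in either list passed (edgeR; 0 at an unadjusted p under 0.05 in each, 0 with DESeq2 and 0 with limma voom). Of the T cell genes with too few reads for a test, Cd3e had 14 reads and Cd3d 3 reads over each group. Cd3g had 12 reads over the intact and 38 over the ORX libraries, and Cd8a 0 and 15 reads. Kidney markers, whose organ makes Ret and Gata3 in its developing collecting ducts, summed to at most 1.37 CPM in any library, and 4 of 9, among them Umod and Pax2, had 0 reads in all. Fat markers summed to 2935 to 8906 CPM in intact and 2112 to 7235 CPM in ORX (none of 7 passed in edgeR; 1 at an unadjusted p under 0.05, 0 with DESeq2 and 0 with limma voom).

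The cortex, which makes up most of the gland and checks the tissue label, had marker sums of 34419 to 76865 CPM in intact and 61247 to 93671 CPM in ORX. Of its 8 markers, Hsd3b1, Mc2r and Cyp21a1 rose and 5 did not pass (edgeR adjusted p 0.0053 to 0.0187 for the 3; that of Cyp21a1 reached 0.0516 when 1 library was left out).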

How the data were processed

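Gene expression was measured by RNA sequencing of adrenal glands, from 300 ng of total RNA per library, per the labels' protocols. The authors deposited unnormalized read counts for each gene symbol, 1 column per sample. Subread 1.5.1, bcl2fastq 1.8.4 and the build mm10 are listed, with no role, in the submitters' processing notes. Neither the gene annotation nor the strand setting is given in the sources used here. The table stands in the file in 2 identical copies, of which the first was used.

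Genes were kept by filterByExpr (minimum count 10, minimum total 15), normalized with TMM and compared between ORX and intact by the two-sided quasi-likelihood test of edgeR 4.0.16 in R 4.3.3, without covariates (limma 3.58.1 and DESeq2 1.42.0 served as alternatives). Standard errors were derived from F. The test was checked on simulated counts of 14139 genes, where it found 48.5% of 66 genes with a 2-fold change and 4.48% of 67 with a 1.5-fold change. Log2 CPM used a prior count of 2, and correlations 100000 draws of a permutation test. The most alike libraries of a group still differed beyond sampling noise, with a chi-square of 25.5 per degree of freedom.

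Positions, lengths and overlaps are those of GENCODE M21 on GRCm38, with symbols matched. As the strand setting is not known, reads of Phox2a may include those of Inppl1 over 95 shared exon bases, and Gfra1, Hand2 and Gata3 share exon bases with antisense or neighbouring genes, up to 461 bases for Hand2 with Hand2os1. Ret, Gfra2, Gfra3 and Gata2 overlap no other annotated gene. Promoter windows are from RefSeq.

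The members and lists were chosen with earlier results of these data known. Genes named were all members, the ligands and co-receptors, up to 4 passing genes per list, Th, Chga and Slc18a2, and the 3 genes most like each member. Hand1, Chgb, Uchl1 and those given with read counts were added after their values were seen. Results of some listed genes are not reported here. Alternatives were RLE scaling, library totals, scaling to the chromaffin markers, no filter, 1 CPM in 5 libraries, DESeq2, limma voom with sample weights, the sample number as a block, the chromaffin score as a covariate, leaving out libraries, and corrections for transcript length and GC content.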

Additional observations from a re-analysis of the deposited data

Results flagged for a closer look

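Ret in ORX 3, at 5.75 CPM, lay far from the other 5 ORX libraries (1.88 to 3.04 CPM): the gap to its nearest neighbour was 0.70 of the group's whole range. With 18 such checks (8 genes and the chromaffin marker sum in both groups), chance alone flags about 1 in 20 groups. ORX 3 also had the highest Gfra1, Gfra2 and Hand2 and the highest chromaffin, stroma, fat, mast cell and endothelial marker sums of the ORX libraries, and the lowest cortex sum.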

How the results depend on the processing

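Ret was lower in ORX in all 23 alternatives and passed in 20; it did not pass when scaled to the chromaffin markers (log2 -1.20), with their score as a covariate (-0.81) or with the sample number as a replicate block (-1.71; edgeR adjusted p = 0.0777). Gfra3 was lower in all 23 and passed in 8, and did not pass with library totals (edgeR adjusted p = 0.0656), no filter (0.0567) or the block (0.128). Gfra1 passed in 2, with limma voom (adjusted p = 0.0478) and without ORX 3. The 4 transcription factor genes and Gfra2 passed in none of the 23. The 2 members called became 1 with library totals, with no filter and without intact 3 and ORX 6 together, and 0 when scaled to the chromaffin markers, with the covariate or with the block; leaving out 1 library gave 1 to 3. The 878 genes called became 1630 with DESeq2, 2056 with limma voom, 416 with the block and 87 (70 higher, 17 lower) with the covariate, and 408 to 1280 without 1 library. Scaled to the chromaffin markers 1285 were called, 1217 higher and 68 lower. The 3 pathway genes became 10 with DESeq2, 9 with limma voom, 0 with the covariate and 7 without intact 3 and ORX 6, and 1 to 7 without 1 library. The 2 chromaffin genes became 1 when scaled to their own sum, 6 with DESeq2, 10 with limma voom, 0 with the covariate, 4 without intact 3 and ORX 6, 7 after the length correction and 4 after the GC correction, and 1 to 6 without 1 library. The log2 difference of the chromaffin sums was -0.75 to -0.44 without 1 library. The cause of these differences was not tested. Deviations of same-numbered samples of the 2 groups had correlations of -0.28 to 0.19. Whether such samples share a batch was not tested, and these correlations cannot decide it. ORX 6 has no intact sample of its number, so it adds nothing to the contrast in the fit with the block. Gfra1 and Gfra3 rest on 9 to 57 reads per library, and the part of depth in their calls was not tested.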
